A study of Mus musculus with 4 samples.

Results

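Target genes of the nuclear receptor PPARα were followed in single-cell RNA sequencing of mouse liver. The group holds 8 genes, Cyp4a10, Cyp4a14, Acot1, Vnn1, Cpt1a, Ehhadh, Pdk4 and Fgf21, chosen by symbol from the 55488 genes counted. All 8 were listed once. They were measured in 4 libraries of primary liver cells, each from 1 mouse. The WT mouse was genetically unmodified. YAPKO mice are Yap fl/fl, TAZKO mice are Taz fl/fl, DKO mice carry both pairs of floxed alleles, and in these 3 genotypes Cre recombinase is driven by the albumin promoter. Deletion is thus directed at hepatocytes (HCs) and biliary epithelial cells (BECs), while endothelial, immune and stellate cells keep intact alleles. HCs and non-parenchymal cells (NPCs) were isolated separately and mixed before loading, so the number of HCs in a library depends on the mixing. No treatment was given. The study's methods state free access to food for the colonies. Genetic background, age, any fasting before isolation and the hour of collection of the sequenced mice are not given in the sources used here.

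PPARα is a ligand-activated transcription factor that binds DNA as a heterodimer with RXR and is abundant in HCs. Fatty acids released during fasting are among its ligands, and its targets cover uptake, activation and oxidation of fatty acids in microsomes, peroxisomes and mitochondria as well as ketogenesis. Cyp4a genes are among the most responsive targets in rodent liver and are widely read as reporters of the receptor.

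The libraries held 13657 barcodes with 66259687 UMIs in WT, 7711 with 85989454 in YAPKO, 14418 with 49022089 in TAZKO and 9188 with 77411746 in DKO. Barcodes with 500 to 6000 genes and at most 10% mitochondrial UMIs were kept, 7155, 6275, 8638 and 8294 in the same order. HCs were kept barcodes in which Alb, Apoa1, Ttr and Apoc3 together held at least 3% of UMIs. This gave 2254 HCs with 19180146 UMIs in WT, 1159 with 16905756 in YAPKO, 3112 with 14371818 in TAZKO and 2925 with 31451371 in DKO. Other HC genes, which the rule did not use, were high in the same barcodes. All 6 of Cps1, Ahsg, Fgb, Serpina1c, Cyp3a11 and Hpx were higher in HCs than in T cell-like cells of each library, such as Ahsg with 3029.8 CPM in HCs and 112 in T cell-like cells of WT. Barcodes with free HC RNA would carry these genes too, so this does not separate such barcodes from HCs. CPM, the level used throughout, is the number of UMIs of a gene per 1000000 UMIs of the cells summed, and its 95% limits are those of an exact Poisson interval. A knock-out was set against WT as the log2 of the quotient of both levels, with 95% limits from the exact conditional binomial distribution. Both kinds of limits cover counting error only. With 1 library per genotype there is no replicate check, no test was made, and each ratio compares libraries rather than genotypes.

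HCs of YAPKO and DKO were deeper than those of WT and TAZKO. The median HC held 2166.5 UMIs in WT, 6457 in YAPKO, 1854.5 in TAZKO and 6475 in DKO. HCs with at least 10000 UMIs, a limit chosen after the data were seen, numbered 384 in WT, 464 in YAPKO, 292 in TAZKO and 995 in DKO. They held 74.7%, 83.4%, 53.6% and 71.8% of HC UMIs in the same order, so the summed levels rest mainly on deep cells, least so in TAZKO. Near the limit of the HC rule, 52 HCs in WT, 94 in YAPKO, 138 in TAZKO and 297 in DKO had shares from 3% to 4%. Another 97, 51, 180 and 205 barcodes in the same order had shares from 2% to 3% and were not counted as HCs. Barcodes that met the HC share but had under 500 genes were left out, and they numbered 5871 in WT, 703 in YAPKO, 4787 in TAZKO and 432 in DKO, more than the HCs kept in WT and TAZKO. No doublet caller was run. UMIs of at least 2 markers of another cell type were found in 465 HCs of WT, 518 of YAPKO, 525 of TAZKO and 586 of DKO. Barcodes shared between any pair of libraries numbered between 10 and 67. All libraries held UMIs of the Y-linked gene Ddx3y (4177 in WT, 5253 in YAPKO, 5791 in TAZKO and 6067 in DKO) in kept barcodes and at most 8 UMIs of Xist, a pair of genes chosen after the values were seen.

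The deleted genes were read first as a check of the labels. Yap1 was at 21.2 CPM in HCs of WT, 4.55 in YAPKO, 46.3 in TAZKO and 4.67 in DKO, lowest in the libraries that carry the floxed gene. Wwtr1, which encodes TAZ, was at 5.58 CPM in WT, 13.5 in YAPKO, 3.34 in TAZKO and 2.89 in DKO. In HCs with at least 10000 UMIs it was at 1.43 CPM in TAZKO against 5.93 in WT, but in HCs with fewer UMIs at 5.55 against 4.54, so shallow TAZKO cells do not show a lower Wwtr1. Endothelial-like cells held Wwtr1 at 140 CPM in TAZKO and 147 in WT. Endothelial markers, named below with Pdk4, summed to 294 CPM in shallow HCs of TAZKO and 184 in WT. The part of such RNA in these Wwtr1 levels was not tested. The position of the deleted exons relative to the counted 3′ ends is not given in the sources used here, and a 3′ tag outside the deleted part checks nothing.

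In HCs, the members did not move as a block. Cyp4a10 and Cyp4a14 were far above WT in TAZKO and DKO and Fgf21 was below WT in all 3 knock-outs. In YAPKO both Cyp4a genes were below WT, Cyp4a14 on few UMIs and with a direction that flipped when each cell was weighted alike. Acot1, Ehhadh and Pdk4 were 2-fold above WT in TAZKO, and Cpt1a and Vnn1 stayed within 2-fold in every knock-out, though not under every alternative. At least 2-fold above WT were 0 of 8 members in YAPKO, where 5.49% of the 9313 genes with at least 100 UMIs were, 5 in TAZKO (21.3% of 9434 genes) and 2 in DKO (12.3% of 10160 genes). At least 2-fold below WT were 2 members in YAPKO (0.601% of genes), 1 in TAZKO (1.18%) and 1 in DKO (1.72%). In either direction these were 2 in YAPKO (6.09% of genes), 6 in TAZKO (22.4%) and 3 in DKO (14.1%). Members were chosen with earlier results of these data known, so a difference from the share of all genes says nothing particular about them. The members were counted without a minimum number of UMIs. At least 100 UMIs over both libraries were held by 5 of them in YAPKO, 7 in TAZKO and 8 in DKO. Of the members past 2-fold, Cyp4a14 in YAPKO (31 UMIs) and Pdk4 in TAZKO (86 UMIs) lay below that number.

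Ratios of all genes were shifted upwards in each knock-out. The median log2 ratio of the genes with at least 100 UMIs was 0.40 in YAPKO, 0.61 in TAZKO and 0.46 in DKO. At the 2-fold limit, 511 genes were higher and 56 lower in YAPKO, against 151 and 131 relative to the median. In TAZKO the split was 2006 higher and 111 lower, against 352 and 522 relative to the median, and in DKO 1253 and 175, against 496 and 386. With ratios taken relative to the median, 0 members lay at least 2-fold higher in YAPKO (1.62% of genes) and 3 lower, Cyp4a10, Cyp4a14 and Fgf21 (1.41%), or 3 in either direction (3.03%). In TAZKO, Cyp4a10, Cyp4a14 and Acot1 lay higher (3.73% of genes) and Fgf21 lower (5.53%), or 4 in either direction (9.26%). In DKO, Cyp4a10 and Cyp4a14 lay higher (4.88% of genes) and Fgf21 lower (3.8%), or 3 in either direction (8.68%). These 3 genes thus passed the limit in DKO on both scales, while Ehhadh and Pdk4 in TAZKO passed it only before centring.

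**Figure D1:**
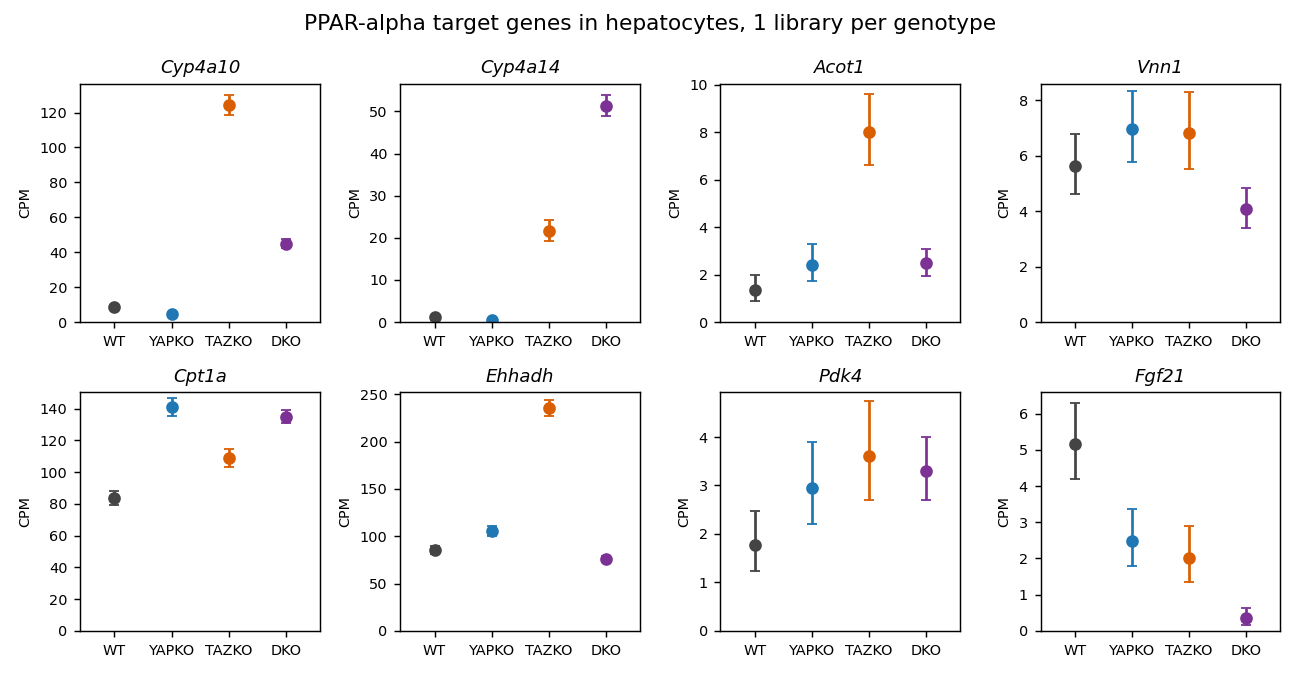
Level of each member in HCs (CPM on a linear axis from 0, separate for each gene) in 4 libraries, with bars for exact 95% Poisson intervals. Cyp4a10 reached 124 CPM in TAZKO and 45.0 in DKO against 8.60 in WT, and Fgf21 fell from 5.16 in WT to 0.350 in DKO.

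**Figure D2:**
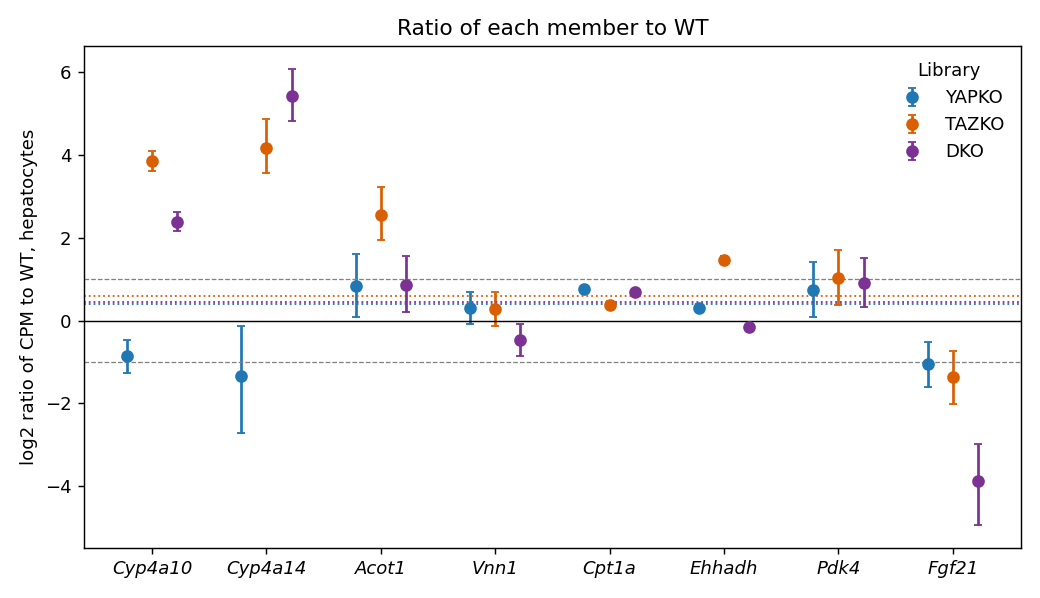
Log2 ratio of CPM to WT in HCs for each member, with exact 95% intervals, the 2-fold limits as dashed grey lines and the median of all genes of each comparison as a dotted line. The ratios of Vnn1 and Ehhadh in YAPKO and of Vnn1 and Cpt1a in TAZKO lie above 0 but below the dotted line, so their direction flips relative to the median.

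Cyp4a10 and Cyp4a14 encode fatty acid omega-hydroxylases of the endoplasmic reticulum. Cyp4a10 (ENSMUSG00000066072) lies on the plus strand of GRCm38 at chr4:115518264-115533649, and Cyp4a14 (ENSMUSG00000028715) on the minus strand at chr4:115486200-115496142. Cyp4a10 was at 8.60 CPM (7.34 to 10.0) in WT, 4.73 (3.75 to 5.89) in YAPKO, 124 (119 to 130) in TAZKO and 45.0 (42.6 to 47.4) in DKO. None of these intervals overlapped. TAZKO was 14.5-fold above WT, a log2 ratio of 3.85 (3.62 to 4.09), and DKO 5.23-fold, a log2 ratio of 2.39 (2.15 to 2.63). In YAPKO the log2 ratio was -0.86 (-1.27 to -0.47). Centred on the median of all genes these ratios were 3.25, 1.93 and -1.26 in the same order.

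Cyp4a14 had 23 UMIs in WT, 8 in YAPKO, 312 in TAZKO and 1615 in DKO. This corresponds to 1.20 CPM (0.760 to 1.80) in WT, 0.473 (0.204 to 0.932) in YAPKO, 21.7 (19.4 to 24.3) in TAZKO and 51.3 (48.9 to 53.9) in DKO. DKO was thus highest for Cyp4a14, whereas TAZKO was highest for Cyp4a10. The log2 ratio of Cyp4a14 to WT was 5.42 (4.83 to 6.08) in DKO, or 42.8-fold, and 4.18 (3.57 to 4.86) in TAZKO, or 18.1-fold. In YAPKO, with 8 UMIs, it was -1.34 (-2.71 to -0.13), and this direction flipped with a mean over cells (1.32) and without HCs that carry markers of another cell type (0.27). After centring the ratio was 4.96 in DKO, 3.57 in TAZKO and -1.74 in YAPKO.

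The balance of both genes separated DKO from the other libraries. Per Cyp4a10 UMI there were 0.139 Cyp4a14 UMIs (0.0860 to 0.216) in WT, 0.100 (0.0417 to 0.207) in YAPKO and 0.175 (0.154 to 0.197) in TAZKO, 3 ratios with overlapping intervals. In DKO there were 1.14 (1.06 to 1.23). The ratio is of counts within 1 library, which scaling does not affect. Both genes have close paralogs. Within the last 500 bases of each gene's transcript in GENCODE release 21, 0 of 411 stretches of 90 bases of Cyp4a10 or of Cyp4a14 occurred in a transcript of another gene. Of stretches of 30 bases, 67 of 471 of Cyp4a10 occurred also in Cyp4a31 and 0 of 471 of Cyp4a14 in any other gene. Levels of Cyp4a10 and Cyp4a31 remain uncertain to that extent.

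Acot1 and Vnn1 act on acyl-CoA and on coenzyme A turnover. Acot1 (ENSMUSG00000072949, chr12:84009490-84018371, plus strand), a cytosolic thioesterase that splits long-chain acyl-CoA, was at 1.36 CPM (0.886 to 1.99) in WT, 2.43 (1.74 to 3.29) in YAPKO, 8.0 (6.61 to 9.60) in TAZKO and 2.48 (1.96 to 3.1) in DKO. TAZKO was highest and did not overlap with the other libraries, while YAPKO and DKO overlapped with each other and with WT. The log2 ratio was 2.56 (1.94 to 3.24) in TAZKO, 0.84 (0.10 to 1.61) in YAPKO and 0.87 (0.21 to 1.57) in DKO, and 1.96, 0.44 and 0.41 relative to the median. In HCs with at least 10000 UMIs the ratio in TAZKO was smaller, at 1.54 (0.58 to 2.54). Acot1 is abundant in Kupffer-like cells, and markers of these cells were therefore read in HCs. All 6 (Clec4f, Vsig4, Cd5l, Timd4, Marco and Folr2) had UMIs, with a sum of 80.7 CPM in WT, 77.6 in YAPKO, 112 in TAZKO and 65.4 in DKO. The most abundant marker was Clec4f in WT and YAPKO and Cd5l in TAZKO and DKO, and none was at 0. In HCs with under 10000 UMIs the sum was 171, 67.5, 171 and 66.1 CPM from WT to DKO, against 50.2, 79.6, 61.2 and 65.1 in deeper HCs. At the ratio of Acot1 to these markers in Kupffer-like cells, such RNA would carry 23.2% of the Acot1 level of HCs in WT, 7.64% in YAPKO, 2.12% in TAZKO and 8.95% in DKO. This carried level was computed after the values were seen, and the part of other cell types' RNA in the ratios was not tested.

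Vnn1 (ENSMUSG00000037440, chr10:23894688-23905343, plus strand) encodes a pantetheinase. It was at 5.63 CPM (4.62 to 6.80) in WT, 6.98 (5.78 to 8.36) in YAPKO, 6.82 (5.54 to 8.31) in TAZKO and 4.07 (3.40 to 4.84) in DKO. WT overlapped with each knock-out, and DKO did not overlap with YAPKO or TAZKO. Log2 ratios were 0.31 in YAPKO and 0.28 in TAZKO, which turned to -0.09 and -0.33 relative to the median and, in TAZKO, to -0.00117 when scaled without the 50 most abundant genes. In DKO the ratio was -0.47 (-0.85 to -0.09), and -0.93 relative to the median.

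Cpt1a encodes the carnitine palmitoyltransferase of the outer mitochondrial membrane, the gate of mitochondrial beta-oxidation. Cpt1a (ENSMUSG00000024900, chr19:3322334-3385733, plus strand) was at 83.6 CPM (79.6 to 87.8) in WT, 141 (136 to 147) in YAPKO, 109 (104 to 114) in TAZKO and 135 (131 to 139) in DKO. It was lowest in WT, and YAPKO and DKO overlapped. The log2 ratio was 0.76 (0.66 to 0.85) in YAPKO, 0.38 (0.28 to 0.48) in TAZKO and 0.69 (0.61 to 0.78) in DKO, each within 2-fold. In 3 of 11 alternatives each knock-out passed 2-fold, with ratios of 1.12, 1.88 and 1.48 when the limits of 500 and 6000 were read as UMIs. Centring gave 0.35, -0.22 and 0.23, so the direction in TAZKO flipped.

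Ehhadh, the bifunctional enzyme of peroxisomal beta-oxidation, followed another order. Ehhadh (ENSMUSG00000022853, chr16:21761287-21787807, minus strand) was at 85.4 CPM (81.3 to 89.6) in WT, 106 (101 to 111) in YAPKO, 235 (228 to 243) in TAZKO and 76.1 (73.1 to 79.3) in DKO. TAZKO was highest and DKO lowest, and no intervals overlapped. The log2 ratio was 1.46 (1.38 to 1.55) in TAZKO and 0.86 relative to the median, which is below the 2-fold limit. In YAPKO it was 0.31 (0.21 to 0.40), which flipped to -0.10 relative to the median. In DKO it was -0.17 (-0.26 to -0.07), and -0.62 relative to the median, but it flipped to 0.43 as a mean over cells, 0.69 with the limits of 500 and 6000 read as UMIs, 0.49 in HCs with under 10000 UMIs, 0.07 without HCs that carry markers of another type and 0.01 with HCs taken from 10% of UMIs. A direction of Ehhadh in DKO can thus not be given.

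Pdk4 encodes a kinase that inhibits pyruvate dehydrogenase and spares glucose during fasting. Pdk4 (ENSMUSG00000019577, chr6:5483351-5496309, minus strand) had few UMIs in HCs, 34 in WT, 50 in YAPKO, 52 in TAZKO and 104 in DKO. Its level was 1.77 CPM (1.23 to 2.48) in WT, 2.96 (2.20 to 3.9) in YAPKO, 3.62 (2.70 to 4.74) in TAZKO and 3.31 (2.70 to 4.01) in DKO. The knock-outs overlapped with each other. Log2 ratios were 0.74 (0.08 to 1.41) in YAPKO, 1.03 (0.38 to 1.70) in TAZKO and 0.90 (0.33 to 1.5) in DKO, and 0.34, 0.42 and 0.44 relative to the median. TAZKO thus lay at the 2-fold limit, with 0.40 (-0.46 to 1.24) in HCs with at least 10000 UMIs. In HCs with fewer UMIs the ratios were 1.78, 2.86 and 2.35 from YAPKO to DKO, and with the limits read as UMIs 1.92, 3.40 and 3.22. Past 2-fold were YAPKO in 4, TAZKO in 5 and DKO in 5 of 11 alternatives, so the size of the difference depended on the cells taken. Endothelial markers (Stab2, Clec4g, Ptprb, Kdr, Cdh5 and Egfl7), all 6 with UMIs in HCs and none at 0, summed to 93.9 CPM in WT, 79.9 in YAPKO, 188 in TAZKO and 85.1 in DKO. Their most abundant gene was Clec4g in WT and DKO and Ptprb in YAPKO and TAZKO. In HCs with under 10000 UMIs they summed to 184, 59.7, 294 and 63.3 CPM from WT to DKO, against 63.5, 83.9, 95.9 and 93.6 in deeper HCs. At the ratio of Pdk4 to these markers in endothelial-like cells, such RNA would carry 17.4% of the Pdk4 level of HCs in WT, 9.46% in YAPKO, 19.2% in TAZKO and 8.86% in DKO. In WT HCs with under 10000 UMIs, where Pdk4 had 3 UMIs, it would carry 97.7%, and the part of such RNA in the ratios was not tested.

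Fgf21 encodes a hormone that the liver secretes in fasting and under amino acid or endoplasmic reticulum stress. Fgf21 (ENSMUSG00000030827, chr7:45613886-45615490, minus strand) had 99 UMIs in HCs of WT, 42 in YAPKO, 29 in TAZKO and 11 in DKO. This corresponds to 5.16 CPM (4.20 to 6.28) in WT, 2.48 (1.79 to 3.36) in YAPKO, 2.02 (1.35 to 2.90) in TAZKO and 0.350 (0.175 to 0.626) in DKO. WT was highest and DKO lowest, each without overlap, and YAPKO and TAZKO overlapped. The log2 ratio was -1.05 (-1.61 to -0.52) in YAPKO, -1.36 (-2.01 to -0.75) in TAZKO and -3.88 (-4.93 to -2.98) in DKO, or 14.8-fold lower in DKO. The DKO level rests on few UMIs, and 1 DKO barcode outside the HC rule, with 2.19% of its UMIs from the rule genes, held 17 Fgf21 UMIs, more than all HCs of DKO. HCs taken from a share below 3% were not run. Centred values were -1.46, -1.96 and -4.34. In YAPKO the ratio lay at the 2-fold limit and was -0.29 as a mean over cells, -0.57 without HCs that carry markers of another type and -0.23 with the limits read as UMIs. Fgf21 therefore lay opposite to Cyp4a10 and Cyp4a14 in TAZKO and DKO.

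Promoters of the members were searched for a few motifs, a set chosen after the values were seen. RefSeq start sites with 250 bases before and 50 after on GRCm38.p6 were matched by symbol for 5 of 8 members, Acot1, Cpt1a, Ehhadh, Pdk4 and Fgf21, and not for Cyp4a10, Cyp4a14 and Vnn1. Both strands were searched for AGGTCA, the hexamer that PPAR and RXR bind, for its direct repeat with 1 base between (the fourth base of each hexamer left free), for TGATGNAA, the element of C/EBP and ATF dimers, for TTANGTAA, the D box read by Dbp and its relatives, and for CACGTG, the E box. A match of the hexamer can lie within a match of the direct repeat. Of 32817 promoters of the same length, 16.3% held the hexamer, 0.381% the direct repeat, 3.97% the C/EBP and ATF element, 2.32% the D box and 7.15% the E box. The promoter of Cpt1a, at chr19:3323051-3323350 on the plus strand, held the hexamer once on its opposite strand, at -94 from the start. That of Fgf21, at chr7:45615441-45615740 on the minus strand, held the C/EBP and ATF element once on its opposite strand, at -139, and the E box once, at -50, without overlap. Both are printed 5′ to 3′ with these matches in capitals, since they were the members with a match. The promoters of Acot1, Ehhadh and Pdk4 held no match. A match is a description of these letters only.

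Cpt1a: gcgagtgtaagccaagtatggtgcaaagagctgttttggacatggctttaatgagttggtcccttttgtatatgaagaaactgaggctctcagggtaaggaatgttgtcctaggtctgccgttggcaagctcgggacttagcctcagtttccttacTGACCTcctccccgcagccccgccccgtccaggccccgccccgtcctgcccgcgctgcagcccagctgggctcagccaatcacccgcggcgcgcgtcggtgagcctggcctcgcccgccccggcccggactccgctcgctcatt
Fgf21: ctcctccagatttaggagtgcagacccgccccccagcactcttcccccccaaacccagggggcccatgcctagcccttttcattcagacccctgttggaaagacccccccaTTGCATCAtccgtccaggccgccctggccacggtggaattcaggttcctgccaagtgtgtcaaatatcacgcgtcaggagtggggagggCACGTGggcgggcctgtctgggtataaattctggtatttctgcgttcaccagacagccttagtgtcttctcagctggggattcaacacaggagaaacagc

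Members were also read separately in deep HCs, those with at least 10000 UMIs, and in shallow HCs, those with fewer. In deep HCs, the log2 ratio of Cyp4a10 was 3.82 in TAZKO and 2.41 in DKO, and in shallow HCs 4.48 and 2.42. Cyp4a14 in deep HCs had ratios of 3.92 in TAZKO and 5.30 in DKO. In shallow HCs it had 0 UMIs in WT, with an upper limit of 0.761 CPM, against 18.8 CPM in TAZKO and 21.1 in DKO. Both genes were therefore above WT at either depth. Fgf21 was below WT at either depth in TAZKO and DKO, with ratios of -1.30 and -1.27 in TAZKO and -3.94 and -3.68 in DKO for deep and shallow HCs. The shallow DKO value rests on 3 UMIs. In YAPKO the Fgf21 ratios were -1.26 and -0.29 (-1.54 to 0.86), so the side in shallow HCs was not resolved. Acot1 in TAZKO was at 3.24 CPM in deep and 13.5 in shallow HCs, with log2 ratios of 1.54 (0.58 to 2.54) and 2.71 (1.77 to 3.82). Levels of Cpt1a were lower in shallow HCs, 26.8 CPM against 103 in WT and 86.3 against 128 in TAZKO, and its ratios from YAPKO to DKO were 1.15, 1.69 and 1.22 there against 0.61, 0.32 and 0.67 in deep HCs. The same held for Ehhadh, with 35.5 against 102 CPM in WT and 202 against 264 in TAZKO, and ratios of 2.51 and 1.37 in TAZKO. Mitochondrial UMIs were 3.68% in deep and 0.585% in shallow HCs of WT and 4.77% and 1.95% in TAZKO. Shallow HCs of WT thus carried fewer mitochondrial UMIs and less Cpt1a and Ehhadh. The nuclear RNA Malat1 was at 2587 CPM in WT, 1004 in YAPKO, 7367 in TAZKO and 911 in DKO in shallow HCs, and at 3238, 3689, 5431 and 4529 in deep HCs. The part of these differences in the ratios was not tested.

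Other genes of fatty acid metabolism were counted by list. Over lists of the receptor and its cofactors, peroxisomal and mitochondrial oxidation, ketogenesis, uptake and activation, and lipid droplets, 81 genes were listed and 72, 72 and 73 had at least 100 UMIs in the comparisons of YAPKO, TAZKO and DKO. At least 2-fold higher were 6 in YAPKO, 11 in TAZKO and 5 in DKO, and 2, 0 and 4 were lower. Of all genes 5.49%, 21.3% and 12.3% were higher and 0.601%, 1.18% and 1.72% lower, and these shares also apply to the lists below. After centring on the median of all genes, 4, 5 and 5 were higher and 2, 4 and 11 lower, beside 1.62%, 3.73% and 4.88% of all genes higher and 1.41%, 5.53% and 3.8% lower. Their median log2 ratio was 0.27 in YAPKO, 0.47 in TAZKO and 0.11 in DKO, below that of all genes in each.

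The receptor itself was within 2-fold of WT over all HCs of each knock-out, but not in shallow HCs of TAZKO, with a log2 ratio of 1.10 (0.81 to 1.39). Ppara was at 46.5 CPM in WT, 59.3 in YAPKO, 63.9 in TAZKO and 67.6 in DKO, with log2 ratios of 0.35, 0.46 and 0.54 against medians of all genes of 0.40, 0.61 and 0.46. Among 14 receptors and cofactors, 1 of 13 measured was 2-fold higher in YAPKO, 4 in TAZKO and 1 in DKO, and none was lower (1 higher in each and none lower after centring). Ppargc1b, a coactivator of the receptor, was at 4.85 CPM in WT, 16.6 in YAPKO, 7.93 in TAZKO and 21.6 in DKO. It was thus highest in the libraries with floxed Yap. Ppard was at 2.4 CPM in WT, 3.9 in YAPKO, 9.88 in TAZKO and 2.61 in DKO, and Rxrb reached 19.8 CPM in TAZKO from 8.86 in WT. Pparg had between 4 and 64 UMIs in HCs and was highest in DKO with 2.03 CPM.

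Among the 18 genes of peroxisomal oxidation, 1 was 2-fold higher in YAPKO, 3 in TAZKO and 2 in DKO, and none was lower (1, 2 and 2 higher and none lower after centring). Acaa1b, a thiolase, was at 294 CPM in WT, 271 in YAPKO, 802 in TAZKO and 204 in DKO. Like Ehhadh it was highest in TAZKO, with a log2 ratio of 1.45 (1.40 to 1.49). It was lowest in DKO, with -0.53 (-0.58 to -0.48), whereas for Ehhadh a direction in DKO could not be given. Abcd2, a peroxisomal fatty acid transporter, was at 3.02 CPM in WT, 5.50 in YAPKO, 14 in TAZKO and 10.8 in DKO. Acot4, a peroxisomal thioesterase and paralog of Acot1, was at 3.34 CPM in WT and at 9.29 in YAPKO, 13.7 in TAZKO and 20.4 in DKO. Pex5, a peroxisomal import receptor, reached 71.6 CPM in TAZKO from 39.4 in WT.

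Of 16 measured mitochondrial genes, 0 in YAPKO, 1 in TAZKO and 0 in DKO were 2-fold higher and none was lower, against 0 higher in each and 1 lower in TAZKO after centring. Their median log2 ratio was 0.12, 0.29 and 0.19 from YAPKO to DKO, against 0.29, 0.49 and 0.01 for peroxisomal genes. Ucp2, the 1 in TAZKO, was at 8.76 CPM in WT and 17.9 in TAZKO, Hadhb at 90.2 and 145, and Acadl at 103 CPM in WT and 163 in DKO. Acot2 had under 100 UMIs in each comparison. Of 3 ketogenic genes none was past 2-fold in any knock-out, and 1 lay 2-fold lower in DKO after centring. Bdh1 reached 124 CPM in TAZKO from 64.2 in WT, Acat1 291 from 195, and Slc16a1 was at 29.4 CPM in WT and 14.7 in DKO.

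Genes of uptake, activation and storage were read in the same way. Acsl1, which activates long-chain fatty acids, was at 483 CPM in WT, 472 in YAPKO, 1159.8 in TAZKO and 209 in DKO. It was thus highest in TAZKO and lowest in DKO, with log2 ratios of 1.27 (1.23 to 1.30) and -1.21 (-1.26 to -1.16). Aldh3a2, a fatty aldehyde dehydrogenase, was at 2.35 CPM in WT, 10.6 in YAPKO, 25.7 in TAZKO and 12.9 in DKO, above WT by at least 2-fold in all 3. Cd36 was highest in YAPKO with 57.6 CPM against 25.9 in WT, and Slc27a1 was at 1.20 CPM in WT and 2.78 in TAZKO. Of 11 measured genes of uptake and activation, 2, 2 and 1 were 2-fold higher in YAPKO, TAZKO and DKO and 0, 0 and 1 lower, against 1, 1 and 1 higher and 0, 2 and 5 lower after centring. For lipid droplets and lipolysis these were 2 of 11, 1 of 11 and 1 of 12 higher and 2, 0 and 3 lower, against 1, 1 and 1 higher and 2, 1 and 5 lower after centring. G0s2, an inhibitor of lipolysis, was at 112 CPM in WT, 29.3 in YAPKO, 110 in TAZKO and 22.6 in DKO, low in both libraries with floxed Yap. Lpl was at 8.03 CPM in WT, 25.6 in YAPKO, 55.9 in TAZKO and 34.0 in DKO. Plin4 was at 0.886 CPM in WT, 3.08 in YAPKO, 1.25 in TAZKO and 0.541 in DKO, and Cidec at 0.938, 3.14, 0.696 and 0.827 CPM in the same order, both highest in YAPKO.

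**Figure D3:**
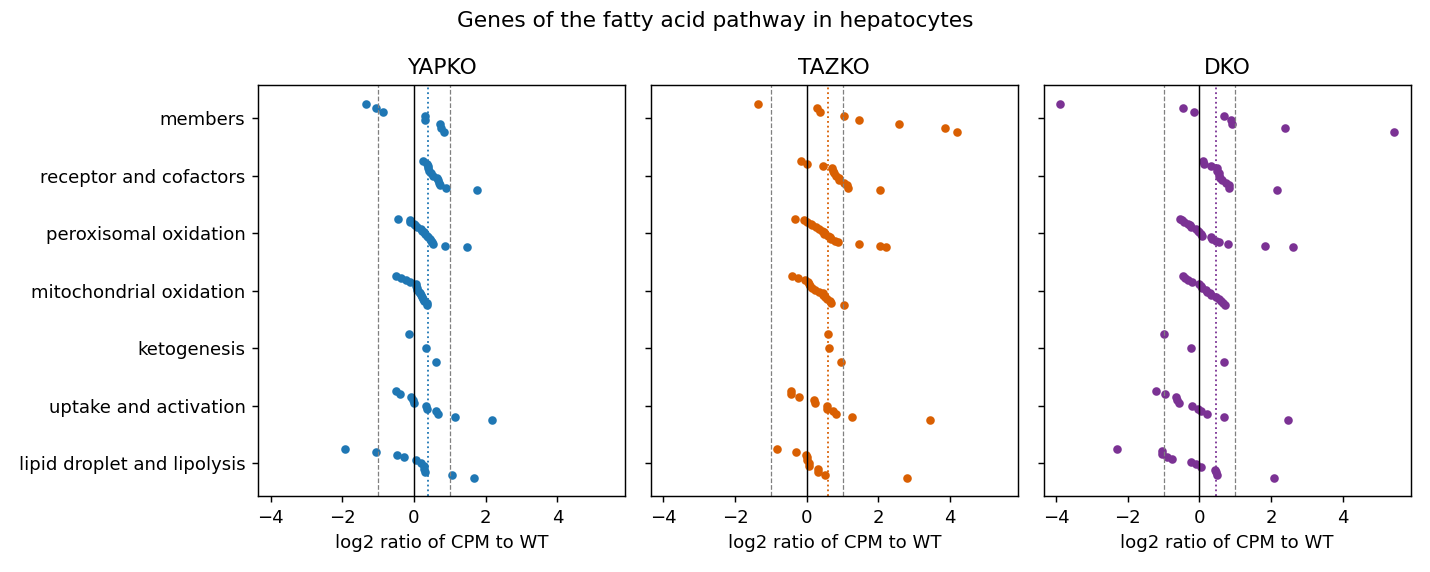
Log2 ratio of CPM to WT in HCs (points, 1 per gene) for the members and 6 lists of fatty acid metabolism, with the 2-fold limits dashed and the median of all genes dotted. List genes with under 100 UMIs in a comparison are left out, and most points lie within the 2-fold limits in each knock-out.

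Lists of the stress response, the clock and the response to fasting and insulin were counted in the same way. Of 8 measured genes of the integrated stress response, through which Fgf21 is also known to be induced, 3 were 2-fold higher in YAPKO, 2 of 5 in TAZKO and 5 of 10 in DKO, and none was lower. After centring these were 3, 1 and 4 higher and 0, 1 and 1 lower. Ddit3 was at 3.44 CPM in WT, 3.67 in YAPKO, 15.9 in TAZKO and 9.89 in DKO. Trib3 was at 1.72 CPM in WT, 5.44 in YAPKO, 3.62 in TAZKO and 7.41 in DKO, and Asns at 5.53 CPM in DKO against 0.521 in WT. Chac1 was at 3.23 CPM in WT and 0.835 in TAZKO. Fgf21 was lowest in DKO, where Asns and Trib3 were highest, whereas Ddit3 was highest in TAZKO and Chac1 in YAPKO, with 5.97 CPM. A relation of Fgf21 to this list was not tested.

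Clock genes set DKO apart. Of 14 measured clock genes, 9 were 2-fold higher and 1 lower in DKO, against 4 and 0 of 12 in YAPKO and 5 and 0 of 12 in TAZKO. After centring 7 were higher and 2 lower in DKO, 1 and 0 in YAPKO and 1 and 1 in TAZKO. Dbp, a transcription factor under clock control, was at 5.94 CPM in WT, 12.7 in YAPKO, 3.55 in TAZKO and 132 in DKO. Per3 was at 0.886, 2.66, 1.53 and 15.9 CPM and Ciart at 0.730, 3.25, 0.557 and 11.3 CPM in the same order, while Npas2 had 3 UMIs in DKO against 28 in WT. Several PPARα targets are known to cycle over the day, and the part of these clock levels in the DKO ratios of Cyp4a10, Cyp4a14 and Fgf21 was not tested.

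Of 11 genes of fasting and insulin response, 5 were 2-fold higher in YAPKO, 3 in TAZKO and 4 in DKO, and none was lower. After centring 0, 1 and 1 were higher and 0, 1 and 1 lower. Tat was at 678 CPM in WT, 1694 in YAPKO, 1475 in TAZKO and 1779.95 in DKO. Srebf1 was at 23.7 CPM in WT, 48.1 in YAPKO, 74.8 in TAZKO and 53.4 in DKO, Irs2 reached 47.0 CPM in DKO from 16.5 in WT, and Fkbp5 was at 34.7 CPM in YAPKO against 14.5 in WT. Among 17 paralogs of the members, 1 of 6 measured was 2-fold higher in YAPKO, 3 of 7 in TAZKO and 2 of 7 in DKO, with none lower, and 1 in each after centring with 1 lower in DKO. Cyp4a31 was at 2.4 CPM in WT, 2.19 in YAPKO, 5.15 in TAZKO and 1.81 in DKO, far less raised than Cyp4a10, and Pdk1 was at 12.7 CPM in WT and 33.9 in TAZKO.

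Genes with a pattern most like each member over the 4 libraries were taken from 8479 genes with at least 400 UMIs in HCs, by the root mean square difference of centred log2 CPM. For Cyp4a10 these were Gm4737 (0.56), Asic5 (0.57) and Hsd3b2 (0.60), and for Cyp4a14 1500015A07Rik (0.52), Gm4841 (1.09) and Rps13-ps1 (1.17). No gene came within 0.25 of Cyp4a10, Cyp4a14 or Fgf21, so their patterns were rarely matched. The closest to Fgf21 were Mup18 (0.27), Adh6-ps1 (0.42) and Mup22 (0.43). Acot1 was matched by Cyp2e1 (0.09), Gm42551 (0.14) and Nfxl1 (0.17), with 12 genes within 0.25. Ehhadh was matched by Crybg3, Sorbs2 and Tspan7 (each 0.08), with 198 genes that close. Patterns of Vnn1 (Sel1l3, Ly6a and Ahnak), Cpt1a (Cep164, Stam2 and Zfand3) and Pdk4 (H2-K2, Rras2 and Atxn1l) were common, with 786, 2465 and 3130 genes within 0.25.

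Other cell types were named from barcodes with UMIs of at least 3 markers of a type and 2 more than of any other type. Endothelial-like cells numbered 2200 in WT, 1566 in YAPKO, 2031 in TAZKO and 1633 in DKO, and Kupffer-like cells 570, 551, 1037 and 650. T cell-like cells numbered 342, 617, 706 and 861 in the same order, and B cell-like cells 413, 438, 548 and 315. Fewer were neutrophil-like (292, 366, 37 and 169), monocyte or macrophage-like (49, 230, 38 and 141), dendritic-like (33, 67, 85 and 119), NK cell-like (26, 58, 37 and 11), stellate-like (25, 7, 18 and 12) and biliary-like (23, 28, 10 and 6). Barcodes outside HCs without a type numbered 928, 1188, 979 and 1452. Among types with at least 50 cells in a library, 2 of 8 members, Acot1 and Pdk4, were higher in another type than in HCs in all 4 libraries, a count chosen after the values were seen, as was the number of markers a type needed. The share of all genes for which this holds was not counted, so the count says nothing particular about the members.

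Ratios to WT were also counted in the types with intact alleles, over members with at least 100 UMIs in both libraries together. In endothelial-like cells these were Cpt1a, Ehhadh and Pdk4. At least 2-fold higher were 0 in YAPKO (3.03% of 11015 genes), 1 in TAZKO (4.65% of 10739), Ehhadh with a log2 ratio of 1.04 (0.64 to 1.44), and 0 in DKO (4.83% of 10940). At least 2-fold lower were 1 in YAPKO (2.62% of genes), Ehhadh with -1.33 (-1.90 to -0.78), 0 in TAZKO (1.52%) and 0 in DKO (2.24%). In Kupffer-like cells, with Cpt1a and Acot1 and in TAZKO Ehhadh, 0 were higher in YAPKO (0.421% of 8782 genes), 1 in TAZKO (6.07% of 8521), Ehhadh with 1.32 (0.69 to 1.98), and 0 in DKO (1.57% of 8511). Lower were 0 in YAPKO (1.54% of genes), 1 in TAZKO, Acot1 (3.8%), and 0 in DKO (2.15%). The median ratio of all genes was 0.05, 0.19 and 0.06 in endothelial-like and -0.03, 0.24 and 0.01 in Kupffer-like cells of YAPKO, TAZKO and DKO. Ehhadh was thus the member whose ratio passed 2-fold in both types, in TAZKO. On fewer UMIs it did so too in T cell-like cells of TAZKO, with 1.79 (0.63 to 3.18), and in B cell-like cells, with 2.44 (1.08 to 4.15). In endothelial-like cells the genes of the HC rule held 0.393% of UMIs in WT, 0.0950% in YAPKO and 0.436% in TAZKO. The part of HC RNA in these Ehhadh ratios was not tested. Per 1000 Alb UMIs, endothelial-like cells held 5.33 Ehhadh UMIs in WT, 7.95 in YAPKO, 6.05 in TAZKO and 6.30 in DKO, against 2.13, 2.63, 5.04 and 2.24 in HCs. The intervals of both overlapped in TAZKO and not in the other libraries. In Kupffer-like cells of TAZKO there were 7.26 (5.66 to 9.17), without overlap with HCs (4.87 to 5.21).

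Pdk4 was highest in endothelial-like cells, with 43.0 CPM (39.4 to 46.9) in WT, 40.7 (37.4 to 44.2) in YAPKO, 42.1 (37.9 to 46.5) in TAZKO and 36.7 (33.3 to 40.3) in DKO. These cells keep intact alleles, and the levels differed little, with a log2 ratio of -0.23 (-0.42 to -0.04) in DKO as the one farthest from 0. UMIs of Pdk4 were found in 19.1% of endothelial-like cells of WT (median 5305.5 UMIs) and in 0 of 342 T cell-like cells (median 4574.5 UMIs). The latter allows a share of cells with a UMI of up to 1.07%, the upper Clopper-Pearson limit. After thinning each cell to 1000 UMIs, with 13 endothelial-like cells of WT left out, the share was 4.02% in WT, and it was 3.78% in YAPKO, 4.19% in TAZKO and 4.37% in DKO with 4, 28 and 8 left out. Unthinned shares were 27.5%, 15.4% and 21.2%. The thinned shares lay close together, whereas the unthinned ones followed depth.

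Among types with at least 50 cells, Acot1 was highest in Kupffer-like cells, with 70.5 CPM (64.1 to 77.4) in WT, 48.5 (44.0 to 53.3) in YAPKO, 27.7 (23.5 to 32.3) in TAZKO and 49.6 (44.3 to 55.3) in DKO. WT was highest and TAZKO lowest, whereas in HCs TAZKO was highest and WT lowest. The log2 ratio was -1.35 (-1.62 to -1.08) in TAZKO, the largest difference among the 3 knock-outs. In YAPKO and DKO it was -0.54 and -0.51. Kupffer-like cells were shallower in TAZKO, with a median of 4910 UMIs against 10607.5 in WT, 16963 in YAPKO and 10068.5 in DKO, and the part of depth was not tested. Acot1 UMIs were found in 43.9% of Kupffer-like cells of WT, 45.6% of YAPKO, 12.5% of TAZKO and 33.5% of DKO, and in 6.32%, 3.99%, 2.48% and 4.95% after thinning to 1000 UMIs. T cell-like cells of WT held 0 Acot1 UMIs. The few biliary-like cells, 23 in WT, 28 in YAPKO, 10 in TAZKO and 6 in DKO, lay above Kupffer-like cells in each library. They held Acot1 at 80.5 CPM (45.1 to 133), 107 (76.4 to 144), 46.0 (12.5 to 118) and 54.2 (11.2 to 158) in the same order. Only in YAPKO did these intervals not overlap with those of Kupffer-like cells.

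**Figure D4:**
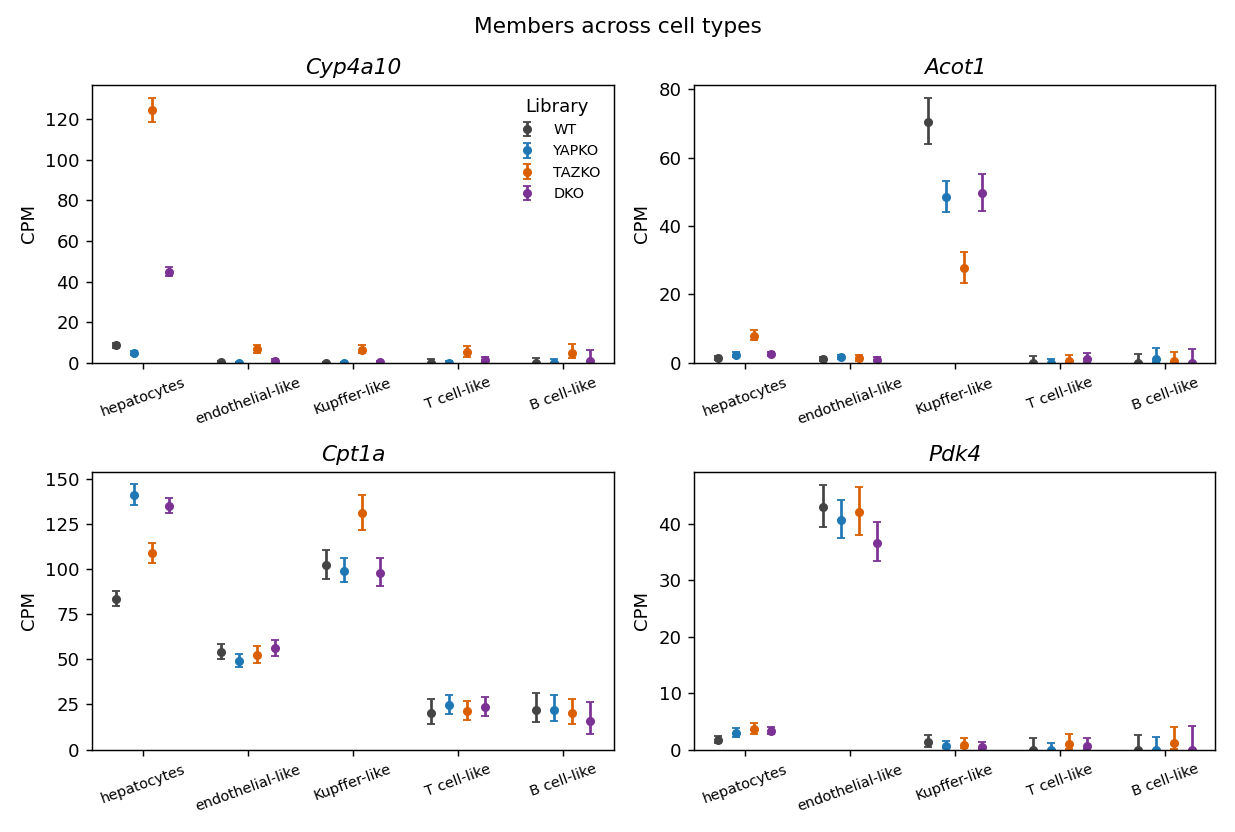
Level of 4 members (CPM on linear axes from 0) in HCs and 4 other cell types of each library, with exact 95% Poisson intervals. Cyp4a10 was highest in HCs, Acot1 in Kupffer-like and Pdk4 in endothelial-like cells in all 4 libraries, and Cpt1a was spread over HCs, Kupffer-like and endothelial-like cells.

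Cpt1a was found in all of these types. Kupffer-like cells had 102 CPM in WT, 99.1 in YAPKO, 131 in TAZKO and 97.9 in DKO, and endothelial-like cells 54.1, 49.2, 52.4 and 56.3 in the same order. T cell-like cells had between 20.4 and 24.5 CPM. The higher Cpt1a of HCs in YAPKO and DKO was not seen in Kupffer-like or endothelial-like cells, whose log2 ratios in these libraries lay between -0.14 and 0.05.

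The other members were found mainly in HCs, except Fgf21 in DKO. Cyp4a10 in TAZKO was at 6.68 CPM in endothelial-like, 6.56 in Kupffer-like, 5.29 in T cell-like and 4.95 in B cell-like cells, against 124 in HCs. Per 1000 Alb UMIs there were 2.65 Cyp4a10 UMIs in endothelial-like cells of TAZKO and 2.66 in HCs. Cyp4a10 UMIs were in 24.3% of HCs of TAZKO (median 1854.5 UMIs) and in 2.41% of T cell-like cells (median 4037.5 UMIs), a type that should lack the gene. The shares in HCs of WT, YAPKO and DKO were 4.53%, 5.0% and 19.9%. After thinning to 1000 UMIs they were 0.311%, 0%, 10.3% and 3.31% from WT to DKO, with 1, 3, 78 and 29 HCs left out, and 0.283% in T cell-like cells of TAZKO. Shares in HCs of TAZKO and DKO thus lay above that value after thinning. Of T cell-like cells, 0 of 342 in WT and 0 of 617 in YAPKO had a Cyp4a10 UMI. By the upper Clopper-Pearson limits, this allows shares of cells with a UMI of up to 1.07% and 0.596%. In endothelial-like, Kupffer-like, T cell-like and B cell-like cells, Ehhadh reached at most 18.7 CPM, in B cell-like cells of TAZKO, Cyp4a14 at most 2.20 CPM and Vnn1 at most 0.691 CPM. Elsewhere in TAZKO, Ehhadh was at 21.3 CPM in the barcodes without a type and at 39.6 in 37 neutrophil-like cells, from 3 UMIs. Cyp4a14 had 1 UMI in the 11 NK cell-like cells of DKO, or 39.2 CPM. Vnn1 had 11 UMIs in the 28 biliary-like cells of YAPKO, or 28.6 CPM (14.3 to 51.1), above HCs of that library. For Fgf21, endothelial-like and Kupffer-like cells held at most 1 UMI in each library and T cell-like and B cell-like cells held 0. Barcodes of DKO without a type held 17 Fgf21 UMIs, all in 1 barcode. This gave 1.30 CPM (0.757 to 2.08), above HCs of that library. Few UMIs gave high levels in small types, such as 18.1 CPM from 1 UMI in 6 biliary-like cells of DKO.

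Position along the porto-central axis was read from 6 pericentral genes (Cyp2e1, Cyp1a2, Glul, Oat, Slc1a2 and Cyp2c29) and 6 periportal genes (Cyp2f2, Hal, Sds, Hsd17b13, Gls2 and Ass1). HCs of each library were ranked by the pericentral share of these UMIs and split into 3 groups of equal size. The groups are ranges of a score and not matched between libraries. In the middle group 486 of 751 cells in WT, 144 of 386 in YAPKO and 464 of 975 in DKO had no pericentral UMI, the same score of 0 as the whole periportal group, so the border between these groups falls among ties there. Pericentral genes were themselves above WT in the knock-outs, with 3, 4 and 3 of 5 measured at least 2-fold higher in YAPKO, TAZKO and DKO and none lower (2, 4 and 1 higher after centring). Cyp2e1 was at 117 CPM in WT, 203 in YAPKO, 781 in TAZKO and 236 in DKO, Cyp1a2 reached 179 CPM in TAZKO from 36.8 in WT, and Oat was at 2.92 CPM in WT, 96.7 in YAPKO, 74.0 in TAZKO and 80.2 in DKO. Slc1a2 was at 0.313 CPM in WT and 4.73 in YAPKO. Of 6 periportal genes, 0, 1 and 1 were 2-fold higher and 0, 0 and 1 lower, against none higher and 0, 1 and 1 lower after centring. Cyp2f2 was at 1314 CPM in WT and 591 in DKO, Hal at 429 CPM in TAZKO against 205 in WT, and Sds at 638 and Hsd17b13 at 692 CPM in DKO against 310 and 373 in WT. Pericentral shares in the periportal group were 0 in WT, YAPKO and DKO and reached 30.6% in TAZKO.

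In DKO, both Cyp4a genes rose towards the pericentral side with all zone genes. Cyp4a10 was at 22.4 CPM (19.6 to 25.5) in the periportal, 39.9 (36.4 to 43.6) in the middle and 75.4 (70.0 to 81.1) in the pericentral group, a log2 ratio of 1.75 (1.53 to 1.97). Cyp4a14 was at 28.1, 49.0 and 79.1 CPM in the same order, with a log2 ratio of 1.5 (1.30 to 1.70). In TAZKO, Cyp4a10 was at 129, 84.3 and 150 CPM and Cyp4a14 at 21.7, 17.9 and 25.5, with log2 ratios between the outer groups of 0.22 and 0.23. In WT, Cyp4a10 was at 7.27, 9.23 and 9.58 CPM with a log2 ratio of 0.40 (-0.35 to 1.12), and in YAPKO at 3.18, 4.67 and 6.20 with 0.96 (-0.03 to 2.03).

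Over all HCs, Ehhadh followed the same axis in YAPKO and DKO. It was at 80.6, 97.7 and 141 CPM in YAPKO, a log2 ratio of 0.81 (0.61 to 1.00), and at 50.8, 71.6 and 109 in DKO, a log2 ratio of 1.10 (0.94 to 1.25). In WT it was at 78.0, 93.2 and 75.2 CPM and in TAZKO at 246, 209 and 227. Among HCs with at least 10000 UMIs alone, Ehhadh in TAZKO rose as well, at 237, 259 and 308 CPM. The log2 ratio there was 0.38 (0.22 to 0.53), so the order in TAZKO depended on the cells taken. Over all HCs, Acot1 was at 0.490, 0.982 and 6.62 CPM in YAPKO, with 2 UMIs in the periportal group, at 3.94, 14 and 14.8 in TAZKO and at 0.498, 2.01 and 5.19 in DKO. Its log2 ratios were 3.76 (1.78 to 6.87), 1.91 (1.22 to 2.61) and 3.38 (2.06 to 5.07), against 0.41 (-1.31 to 1.97) in WT. Pericentral levels of Acot1 thus exceeded periportal ones in each knock-out. In WT the difference was not detectable at this depth with all zone genes. With Cyp2e1 and Cyp2f2 as the only zone genes, the log2 ratio in WT was 1.86 (0.42 to 3.27), from 9 pericentral and 11 periportal UMIs. Whether WT differs from the knock-outs here thus depends on the zone genes.

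In a count chosen after the values were seen, 2 of 8 members, Cyp4a10 and Acot1, were higher in the pericentral than in the periportal group in all 4 libraries. In WT the intervals of both genes included 0 with all zone genes. The share of all genes that meet this rule was not counted, so the count says nothing particular about the members. With Cyp2e1 and Cyp2f2 as the only zone genes it was 1, Acot1, and in HCs with at least 10000 UMIs 2, Cyp4a10 and Ehhadh, so the members in this count changed. In these deep HCs the log2 ratio in DKO was 1.46 for Cyp4a10, 1.10 for Cyp4a14 and 0.80 for Ehhadh, and with Cyp2e1 and Cyp2f2 alone it was 0.60, 0.42 and 0.24. With Cyp2e1 and Cyp2f2 alone these genes did not rise steadily in DKO but were lowest in the middle group. From periportal to pericentral, Cyp4a10 was then at 50.2, 11.4 and 76.0 CPM, Cyp4a14 at 61.0, 12.1 and 81.8 and Ehhadh at 87.5, 38.5 and 103. For Cpt1a the direction differed between libraries, with -0.37 (-0.64 to -0.12) in WT and 0.51 (0.39 to 0.63) in DKO, and the latter flipped to -0.31 with Cyp2e1 and Cyp2f2 alone. Over all HCs, Pdk4 had log2 ratios of 1.74 (0.40 to 3.33) in YAPKO and 0.92 (0.21 to 1.66) in DKO, and Vnn1 -1.55 (-2.81 to -0.50) in TAZKO. Intervals for Fgf21 included 0 in all 4 libraries there. In deep HCs the Pdk4 intervals included 0 in YAPKO (-0.25 to 2.13) and DKO (-0.14 to 1.54). In deep HCs of WT, Pdk4 was at -1.68 (-3.31 to -0.27) and Fgf21 at -0.97 (-1.87 to -0.11). Depth moved with these groups, from a median of 2767 UMIs in the periportal to 1459 in the pericentral group of TAZKO and from 7149 to 5707 in DKO, and its part was not tested.

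**Figure D5:**
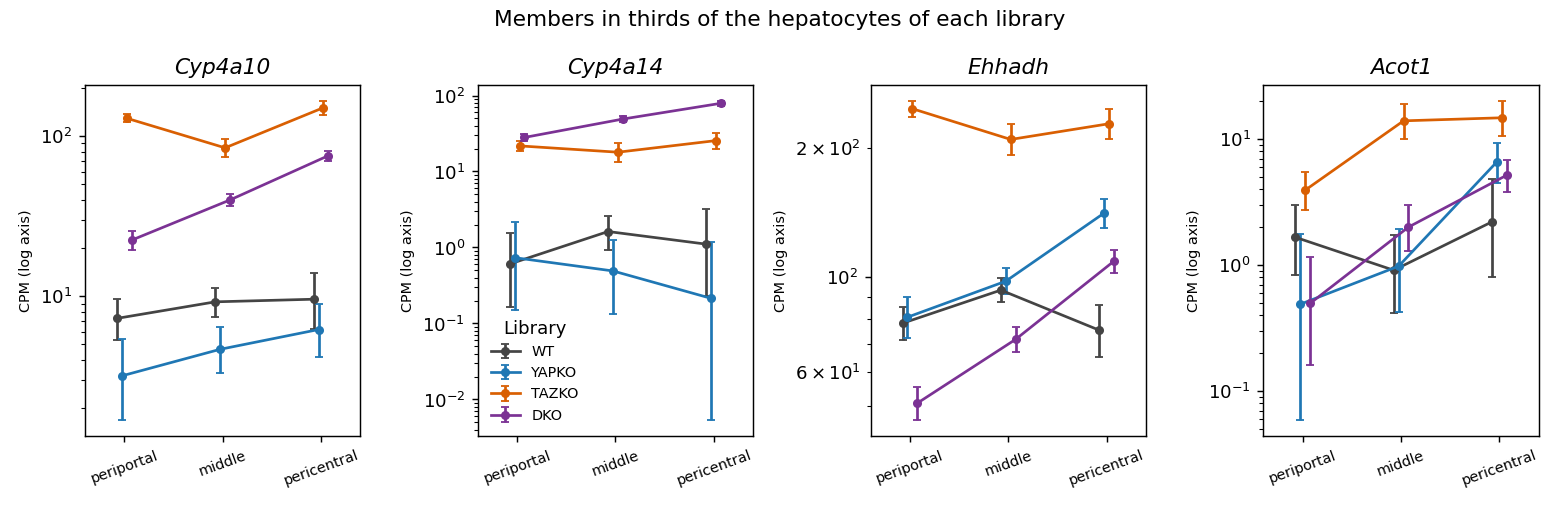
Level of 4 members (CPM on log axes) in 3 groups of HCs of equal size in each library, ranked from periportal to pericentral, with exact 95% Poisson intervals. In DKO, Cyp4a10, Cyp4a14, Ehhadh and Acot1 all rose from the periportal to the pericentral group, whereas in TAZKO Cyp4a10, Cyp4a14 and Ehhadh were lowest in the middle group.

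Within the deep HCs, the spread of the members over cells was read next. Cyp4a10 UMIs were found in 21.1% (17.1 to 25.5) of deep HCs in WT, 12.1% (9.25 to 15.4) in YAPKO, 71.6% (66.0 to 76.7) in TAZKO and 42.6% (39.5 to 45.7) in DKO, with Clopper-Pearson intervals. After thinning each of these cells to 10000 UMIs, none of which was left out, the shares were 8.07%, 4.53%, 52.7% and 29.9%. For Cyp4a14 they were 4.69%, 1.08%, 25.7% and 43.2% before and 1.04%, 0.647%, 15.4% and 29.0% after thinning. The 10% of deep HCs with the most Cyp4a10 UMIs held 45.3% of them in TAZKO and 56.3% in DKO. The 10% with the most Ehhadh UMIs held 22.6% of those in TAZKO and 31.9% in DKO, and the 10% with the most Cpt1a UMIs 23.3% and 25.8%. Values were also large where UMIs were few. They were 69.7% for Cyp4a10 in WT (142 UMIs), 87.2% in YAPKO (78) and 70.5% for Vnn1 in TAZKO (61). At similar numbers in TAZKO, 1081 UMIs of Cyp4a10 and 990 of Cpt1a, Cyp4a10 was the less even of both. In DKO Cyp4a10 had fewer UMIs (1189) than Ehhadh (1953) and Cpt1a (3695), so these values are not comparable. Whether the unevenness is particular to Cyp4a genes was not tested.

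Deep HCs with a Cyp4a14 UMI held more Cyp4a10 in WT, TAZKO and DKO. In WT the level was 26.1 CPM (16.9 to 38.5) in 18 cells with such a UMI and 8.75 (7.24 to 10.5) in 366 without. In DKO, the 430 deep HCs with a Cyp4a14 UMI had 80.6 CPM of Cyp4a10 (75.5 to 86.1), against 25.3 (22.4 to 28.4) in the 565 without, at median depths of 24948.5 and 16949 UMIs. In TAZKO the levels were 235 CPM in 75 cells and 103 in 217 cells, at 27690 and 24540 UMIs. Of Cyp4a10 UMIs in deep HCs, 574 of 1081 in TAZKO and 288 of 1189 in DKO lay in cells without a Cyp4a14 UMI. The DKO cells with Cyp4a14 were also higher in Ehhadh (106 against 67.4 CPM), Cpt1a (196 against 132), Ppara (84.5 against 67.4), pericentral Cyp2e1 (399.8 against 153) and periportal Cyp2f2 (815 against 596), while Dbp was similar (122 against 130). In TAZKO, Ehhadh overlapped between both groups (267 and 263 CPM), Cyp2e1 was at 741 against 306 CPM and Cyp2f2 at 1940 against 1964. In WT, Cyp2e1 was lower in the cells with a Cyp4a14 UMI, at 59.4 CPM (45.0 to 76.98) against 128 (122 to 134). Cells were split by a gene of the list and after the values were seen, so these levels are a description, and the part of depth was not tested.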

How the data were processed

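Single-cell RNA sequencing was performed with 10x Genomics 3′ chemistry on primary liver cells of 4 mice, 1 library for each of WT, YAPKO, TAZKO and DKO. The values used are raw UMI counts per gene and barcode, which the authors deposited as matrices after alignment to mm10 with Cell Ranger. The study names version 6.0.1 and the matrix headers 4.0.0. Limits on genes, mitochondrial UMIs and HC genes are given with the results. UMIs were summed per library and cell group, scaled to CPM and set against WT with exact intervals. A ratio against a count of 0 used 3 counts in its place. Analyses were run in Python 3.11.15 with numpy 2.4.6, scipy 1.17.1, pandas 2.3.3 and matplotlib 3.10.9, and the ratio step was tested on simulated counts.

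With 1 library per genotype no test was possible, and a fold of 2 served as a rule of size. Genes other than the members needed 100 UMIs over both libraries. Of each gene list up to 4 genes are named, those with the largest absolute log2 ratio among list genes with at least 100 UMIs over the 4 libraries, besides Ppara, Yap1 and Wwtr1. For each member the 3 genes most like it are named, from genes with at least 400 UMIs. The lists cover the receptor and its cofactors, peroxisomal and mitochondrial oxidation, ketogenesis, uptake and activation, lipid droplets and lipolysis, paralogs of the members, the integrated stress response, the clock, the response to fasting and insulin, the deleted genes, both ends of the porto-central axis and markers of liver cell types. Of ketogenesis, 2 genes are not reported here and are left out of the counts. Members and lists were chosen with earlier results of these data known. Gene coordinates and 3′ ends come from GENCODE release 21 (GRCm38), in which 55141 of 55488 gene identifiers were found, and promoters from RefSeq (GRCm38.p6).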

Additional observations from a re-analysis of the deposited data

Results flagged for a closer look

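The ratio of Acot1 to WT lay on opposite sides of 0 in HCs and in Kupffer-like cells. In HCs the log2 ratio was 0.84 in YAPKO, 2.56 in TAZKO and 0.87 in DKO, and in Kupffer-like cells -0.54, -1.35 and -0.51. The median of the 3 differences was 1.38, and the difference was not tested. For Pdk4 the ratios were 0.74, 1.03 and 0.90 in HCs and -0.08 (-0.25 to 0.10), -0.03 (-0.23 to 0.16) and -0.23 (-0.42 to -0.04) in endothelial-like cells, so the side in the latter is resolved in DKO only. The median of these differences was 1.06, and the difference was not tested.

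Barcodes with HC RNA and over 6000 genes took no part in the comparisons. They numbered 81 in WT, 132 in YAPKO, 12 in TAZKO and 43 in DKO, and some members were above the WT level in them, with intervals that did not overlap. Cyp4a10 was at 126 CPM in TAZKO and 24.8 in DKO against 15.3 in WT, and Cyp4a14 at 53.5 and 36.9 against 1.46. Acot1 was at 15.9 CPM in TAZKO against 2.77 in WT, Ehhadh at 223 in TAZKO against 118, and Cpt1a at 127 in YAPKO against 107. Others were below it without overlap, Ehhadh at 64.3 CPM in YAPKO and 52.1 in DKO, Cyp4a10 at 4.08 in YAPKO and Fgf21 at 0 (up to 1.27) in DKO against 5.37. Fgf21 was at 5.51 CPM (4.14 to 7.19) in YAPKO, not below WT, unlike in the HCs compared. In TAZKO it had 4 UMIs, or 5.79 CPM (1.58 to 14.8), too few for a contrast. These differences were not tested.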

How the results depend on the processing

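No paired analysis was possible because each genotype has 1 library, and all values come without a replicate check. Ratios cover counting error only, depth of HCs differed between libraries, and no doublets were removed. The split at 10000 UMIs was added after the data were seen. No Cyp4a14 ratio in YAPKO could be given with limits read as UMIs or under 10000 UMIs, where both counts were at or under 3. Over the 11 alternatives, Cyp4a10, Cyp4a14, Acot1 and Fgf21 in TAZKO and Cyp4a10, Cyp4a14 and Fgf21 in DKO stayed past 2-fold in all 11, Ehhadh in TAZKO in 10 and Pdk4 in TAZKO in 5. In YAPKO, Fgf21 stayed past 2-fold in 7 of 11 and Cyp4a14 in 7 of the 9 that gave a ratio. Of ratios within 2-fold before, Cyp4a10 passed it in 5 in YAPKO, Pdk4 in 4 in YAPKO and 5 in DKO, Cpt1a in 3 in each knock-out, Acot1 in 2 in YAPKO and 3 in DKO, and Vnn1 in 1 each in YAPKO and DKO. Log2 ratios ranged from 3.25 to 5.27 for Cyp4a10 in TAZKO and 1.93 to 3.32 in DKO, 2.49 to 6.50 and 4.66 to 7.40 for Cyp4a14, and -2.04 to -1.21 and -4.52 to -2.82 for Fgf21. Acot1 in TAZKO ranged from 1.54 to 2.89.

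Shares of all genes past 2-fold were counted for the main setting and relative to the median only. Under the other alternatives, counts of members and pathway genes thus stand without that share. With limits of 500 and 6000 read as UMIs, 4 members were past 2-fold in YAPKO (2 before) and 6 in DKO (3 before), and of pathway genes 37 in TAZKO (11 before) and 16 in DKO (9 before). In HCs with under 10000 UMIs, 5 members in YAPKO, 5 members in DKO and 31 pathway genes in TAZKO were past it. As a mean over cells, it was 5 members and 14 pathway genes in DKO and 28 pathway genes in TAZKO, and Cyp4a14 in YAPKO turned from -1.34 to 1.32. With HCs from 10% of UMIs, it was 6 members in DKO, 2 pathway genes in YAPKO (8 before) and 4 in TAZKO. Without HCs that carry 2 markers of another type, 4 pathway genes in YAPKO and 17 in TAZKO were past it and Cyp4a14 in YAPKO turned to 0.27. Scaled without the 50 most abundant genes of any library, 7 pathway genes in TAZKO were, and relative to the median 16 in DKO. With Cyp2e1 against Cyp2f2 alone, 1 member in place of 2 was higher in the pericentral group in all 4 libraries, and the pericentral to periportal ratio of Cyp4a14 in YAPKO turned from -1.78 to 2.49. The cause was not tested. Of the other values, 237 stayed within their counting intervals, 142 moved out of them, and 52 counts stayed within 1.5 times.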

Other observations

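Outside HCs and named cell types, Fgf21 in DKO came from a single barcode. It held all 17 Fgf21 UMIs of the 1452 barcodes without a type, among 21721 UMIs and 4880 genes. The genes of the HC rule held 2.19% of its UMIs, and it had UMIs of 2 biliary, 1 monocyte and 1 dendritic cell marker. Of the other members it held 3 Cpt1a UMIs, 1 Ehhadh UMI and 0 of the rest. The barcode was singled out after its values were seen.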
